A study of Mus musculus with 2 samples.

Results

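The miR-193 and miR-365 microRNAs are made from 4 hairpin genes that lie as neighbours at 2 loci of the mouse genome. Mir193b and Mir365-1 form the Mir193b/Mir365-1 locus on chromosome 16, and Mir193a and Mir365-2 form the Mir193a/Mir365-2 locus on chromosome 11. The 4 genes were found by symbol among the 2202 miRNA genes of the deposited tables, after their Ensembl identifiers had been matched to GENCODE M21. All 4 were present. The libraries are 2 biological replicates, numbered so in the labels, of a single group, the mouse line C2C12 on the C3H background from ATCC. These are myoblasts that come from injured thigh muscle, and they divide as single cells and fuse into myotubes when serum is withdrawn. Small RNA under 30 nucleotides was sequenced from total RNA. The labels give no treatment and no culture stage, and no brown fat or adipocyte sample was analysed here, so the data describe levels in C2C12 cells at an unlabelled stage and hold no contrast between muscle and fat.

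A microRNA gene is transcribed as a longer RNA that holds a hairpin. The hairpin is cut into a 5p and a 3p arm, and the arm that is kept guides the silencing complex to mRNAs that pair with its seed, the stretch from base 2 to base 8. In mice the Mir193b/Mir365-1 locus is known for its enrichment in brown fat, the tissue that burns fat for heat and shares a precursor with skeletal muscle. In cultured mouse cells the pair was reported to favour brown fat formation, with forced miR-193b turning C2C12 myoblasts toward brown adipocytes, while mice without the locus were reported to form brown fat. The Mir193a/Mir365-2 locus is its paralog.

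The mature arms are shown because they decide which reads can be told apart. They are RefSeq sequences on GRCm38.p6, written 5′ to 3′, with the seed in capitals. Every member gene matched its RefSeq hairpin, and each of the 4 hairpins was identical in RefSeq and GENCODE.
miR-193b-3p: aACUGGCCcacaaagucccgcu
miR-193a-3p: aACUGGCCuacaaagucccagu
miR-193b-5p: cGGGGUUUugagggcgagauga
miR-193a-5p: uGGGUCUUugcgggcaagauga
miR-365-3p: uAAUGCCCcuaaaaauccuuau
miR-365-1-5p: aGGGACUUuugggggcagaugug
miR-365-2-5p: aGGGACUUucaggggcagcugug

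The arms fall into 3 shared seeds and 2 seeds of their own. The miR-193b-3p and miR-193a-3p arms share the seed ACUGGCC, and no other of the 1738 mature entries in the RefSeq table has it. With positions counted from 1 at the 5′ end of miR-193b-3p, the 2 arms differ by C9U, G20A and C21G. All of these lie outside the seed, and 19 of 22 bases are identical. The 5p arms of miR-193 differ at 5 of 22 bases, C1U, G5U, U6C, A11C and G16A from miR-193b-5p to miR-193a-5p, and so have different seeds. The miR-365-3p arm is the same molecule from both loci, with the seed AAUGCCC. The miR-365-1-5p and miR-365-2-5p arms share the seed GGGACUU and differ by U10C, G11A and A19C, counted from the 5′ end of miR-365-1-5p.

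The hairpins of the miR-365 copies show how far the identity reaches. The arms are in capitals.
Mir365-1: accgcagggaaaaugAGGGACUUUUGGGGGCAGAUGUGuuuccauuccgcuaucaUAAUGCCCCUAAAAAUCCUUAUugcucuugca
Mir365-2: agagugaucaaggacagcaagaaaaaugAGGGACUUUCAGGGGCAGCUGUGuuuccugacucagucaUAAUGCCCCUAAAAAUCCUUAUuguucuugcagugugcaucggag
The longest stretch common to both is 27 bases, ucaUAAUGCCCCUAAAAAUCCUUAUug, the whole 3p arm (capitals) with 3 bases before it and 2 after it. In a global alignment the hairpins were identical at 75 of 115 positions, or 65.2%. Mir193b and Mir193a were identical at 52 of 84 positions, or 61.9%, but shared no stretch longer than 10 bases.

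Which reads of each hairpin belong to a single gene was measured by sliding a window of read length along each hairpin and searching all GENCODE M21 transcripts on both strands. All 58 windows of 22 bases in Mir193b and all 45 in Mir193a occurred in that gene only. In Mir365-1, 60 of 66 such windows occurred in no other gene and 6 also lay in Mir365-2, and in Mir365-2 the counts were 85 of 91 and 6. The shared windows sit at the 3p arm. A read that starts at the first base of miR-365-3p fits both hairpins at its mature length of 22 bases and up to 24, and fits a single hairpin only from 25 bases on, that is 3 bases beyond the mature end. The 5p arms of both miR-365 hairpins, and all arms of miR-193, were held by a single gene from 18 bases on. The search covered annotated transcripts and not the rest of the genome.

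**Figure D1:**
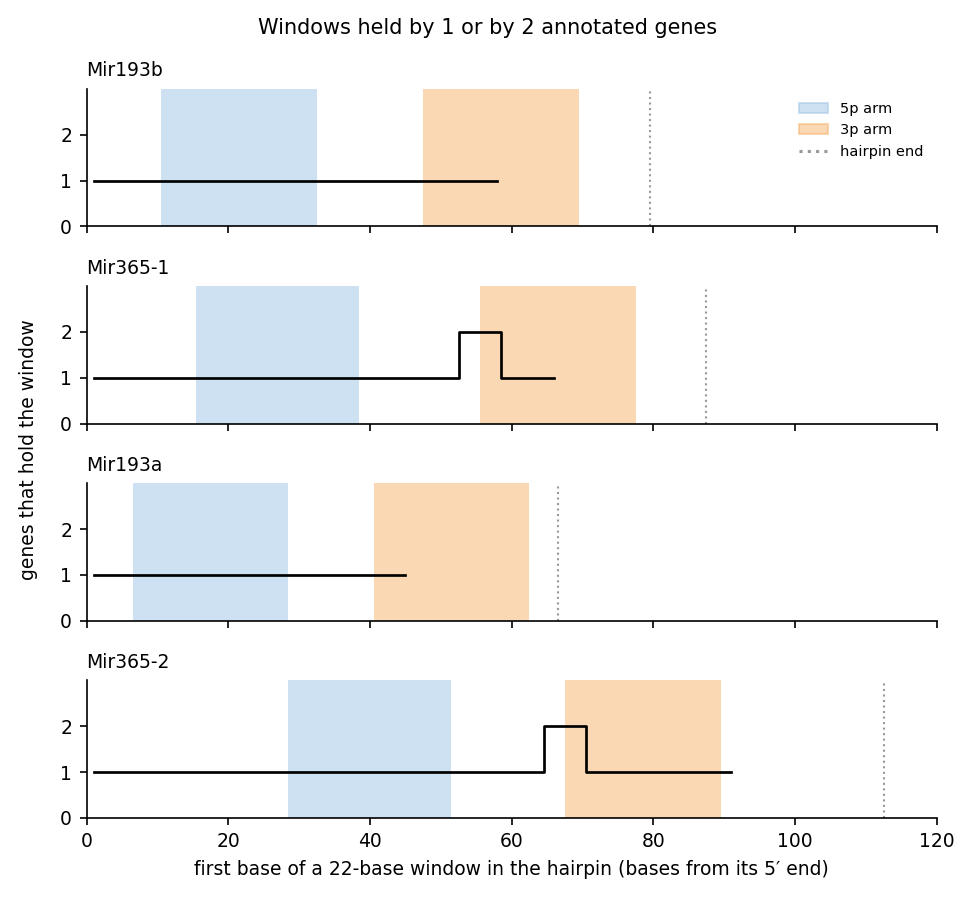
Number of annotated genes (y axis) that hold each window of 22 bases, by the window's first base in the hairpin (x axis, bases from the 5′ end), for the 4 hairpins. Blue and orange bands mark the 5p and 3p arms and dotted lines the hairpin end. The line reaches 2 for 6 windows of Mir365-1 and 6 of Mir365-2, all around the start of the 3p arm, and stays at 1 for Mir193b and Mir193a.

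The count tables were searched for signs of how such shared reads were treated. In 303 miRNA genes every window of 18 bases also lies in another, non-overlapping counted hairpin. Together these genes had 55 reads in replicate 1 and 18 in replicate 2, spread over 5 genes. Over all 2202 miRNA genes, 804 had at least 1 read. Whether the 303 genes are low for want of expression was not tested. The multi-mapping reads, which fit several places, are listed apart from the genes and numbered 18382947 in replicate 1 (33.4% of its reads) and 5599235 in replicate 2 (22.8%). How many of them came from miR-365-3p was not tested. The multi-mapping count is the same in all 3 count columns and is held apart from the genes. This and the low counts of these 303 genes are all that the tables show of how reads that fit several hairpins were handled. The rule used in counting is not given in the sources used here. If such reads were left out for miR-365 as well, the counts of Mir365-1 and Mir365-2 hold only reads with a distinguishing base, so they are not read here as the level of miR-365-3p.

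The members lie between protein-coding genes, on the plus strand throughout (mm10). Mir193b spans chr16:13449523-13449601 and Mir365-1 chr16:13453840-13453926, with 4238 bases between them. Mir193a spans chr11:79711969-79712034 and Mir365-2 chr11:79726400-79726511, with 14365 bases between them. No GENCODE M21 gene hosts any of them on its strand and no exon of another gene covers them. On the minus strand Gm15738, annotated as antisense, spans Mir193b and Mir365-1 in its introns. RefSeq places both within the spans of the long non-coding RNA genes Gm32817 and Gm53058. The nearest protein-coding gene upstream is Mrtfb, a coactivator of serum response factor, 31993 bases before Mir193b, and Rab11fip4, a Rab11-binding protein, 13945 bases before Mir193a.

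The gene-strand total was 27661907 reads for replicate 1 and 15025315 for replicate 2, and a level here is the count per 1000000 of these reads (CPM). Mir21a took 23.1% of this total in replicate 1 and 53.5% in replicate 2, which lowers the CPM of every other gene in replicate 2. Muscle markers were led by Mir206, a microRNA specific to skeletal muscle, at 1794 ± 1082 CPM (SD, n = 2), and 2 of 8 such markers were detected. Of other cell types, Mir142 and Mir150 were detected among 4 blood markers and Mir200c and Mir141 among 5 epithelial ones. The only markers listed for endothelium, Mir126a, and for liver, Mir122, were detected. The blood list summed to 220 CPM in replicate 1 and 125 in replicate 2, of which Mir142 alone had 215 and 122. The other blood markers Mir223 and Mir451a lay below 1 CPM in both libraries. The endothelial gene had 213 and 134 CPM, the epithelial list summed to 12.4 and 8.45, and the liver gene had 3.90 and 1.26. Mir124a-1, Mir124a-2 and Mir124a-3 of neurons had no read in either library. These copies share from 20 to 26 windows of 22 bases with each other, as Mir133a-1 and Mir133a-2 (13 windows) and Mir1a-1 and Mir1a-2 (7 windows) of the muscle list do, so their low or zero counts may miss reads that fit several copies. Their part in the levels of the members was not tested. In bulk RNA, fewer cells of a type and less RNA per cell cannot be told apart.

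Mir193b, the hairpin of the brown fat locus, was counted 2033 times in replicate 1 and 397 times in replicate 2. The levels were 73.5 CPM (exact 95% Poisson interval 70.3 to 76.8) and 26.4 CPM (23.9 to 29.2), a mean of 49.96 ± 33.3 CPM (SD, n = 2). It ranked 148th of 2202 genes in replicate 1 and 165th in replicate 2. Replicate 1 was higher, and the intervals, which cover counting error only, did not overlap.

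Mir365-1, its neighbour, was close to the limit of detection. It had 18 reads in replicate 1 and 6 in replicate 2, or 0.651 CPM (0.386 to 1.03) and 0.399 CPM (0.147 to 0.869), a mean of 0.525 ± 0.178 CPM (SD, n = 2). The intervals overlapped. The floor, the 3 counts that a count of 0 allows, stood at 0.108 CPM for replicate 1 and at 0.200 CPM for replicate 2.

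Mir193a, the paralog whose 3p arm has the same seed, was the highest of the 4 genes in each library. It had 4809 reads in replicate 1 and 1516 in replicate 2, or 174 CPM (169 to 179) and 101 CPM (95.9 to 106), a mean of 137 ± 51.6 CPM (SD, n = 2). It ranked 123rd and 125th of 2202 genes, so its place in the order of genes hardly differed while its CPM did.

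Mir365-2 was counted 478 times in replicate 1 and 159 times in replicate 2. The levels were 17.3 CPM (15.8 to 18.9) and 10.6 CPM (9.00 to 12.4), a mean of 13.9 ± 4.74 CPM (SD, n = 2). It ranked 197th and 195th. A gene was called detected from 1 CPM upward in each library, which 3 of the 4 genes reached, Mir365-1 being the exception, against 14.5% of all 2202 miRNA genes and 26.6% of the 1174 with a symbol that starts with Mir.

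**Figure D2:**
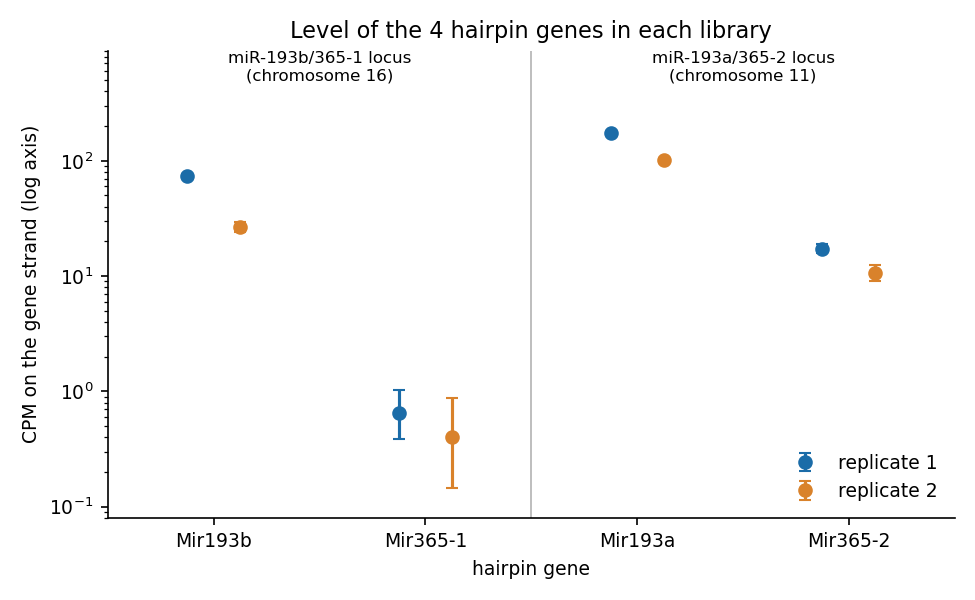
CPM on the gene strand (log axis) of the 4 hairpin genes, by locus, in replicate 1 (blue) and replicate 2 (orange). Bars are exact 95% Poisson intervals of the counts. Mir193b and Mir193a lie above their miR-365 neighbours in both libraries, and every gene has the higher CPM in replicate 1.

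The order of the 4 genes was the same in both libraries, also per base of hairpin. On that scale the mean level was 0.632 ± 0.421 CPM per base for Mir193b, 2.08 ± 0.782 for Mir193a, 0.124 ± 0.0423 for Mir365-2 and 0.00603 ± 0.00204 for Mir365-1 (SD, n = 2 for each). From Mir193a down through Mir193b and Mir365-2 to Mir365-1, the values of neighbours in this order did not overlap between genes in any of the libraries. With 2 libraries of a single group no test of this order was made.

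The Mir193b/Mir365-1 locus had fewer assigned reads than its paralog. It summed to 74.1 CPM in replicate 1 and 26.8 CPM in replicate 2, against 191 and 111 CPM at the Mir193a/Mir365-2 locus. The means were 50.5 ± 33.5 CPM and 151 ± 56.3 CPM (SD, n = 2). Of the reads on both loci, 28.0% (exact Clopper-Pearson 95% interval 26.9 to 28.99) were on the Mir193b/Mir365-1 locus in replicate 1 and 19.4% (17.7 to 21.2) in replicate 2, a mean of 23.7% ± 6.05 (SD, n = 2). This share does not depend on library totals, so the shift of Mir21a does not enter it.

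The miR-193 hairpins carried this difference between the libraries. Mir193b held 29.7% (28.6 to 30.8) of the Mir193b and Mir193a reads in replicate 1 and 20.8% (19.0 to 22.6) in replicate 2. These intervals did not overlap, and the mean was 25.2% ± 6.34 (SD, n = 2). Mir193b had 0.423 times the reads of Mir193a in replicate 1 and 0.262 times in replicate 2, or 0.353 and 0.219 times per base of hairpin. Most miR-193 reads thus lay on Mir193a in both libraries. The counts are per hairpin and do not separate the 5p from the 3p arm.

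The miR-365 copies divided in the same proportion in both libraries. Mir365-1 held 18 of 496 miR-365 reads in replicate 1, or 3.63% (2.16 to 5.67), and 6 of 165 in replicate 2, or 3.64% (1.346 to 7.75). Counting error alone would let these shares differ by several percent, so their closeness is no measure of precision. The share refers to the reads that were assigned to either gene, and how far reads of the identical miR-365-3p arm, shown above, are among them was not tested.

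**Figure D3:**
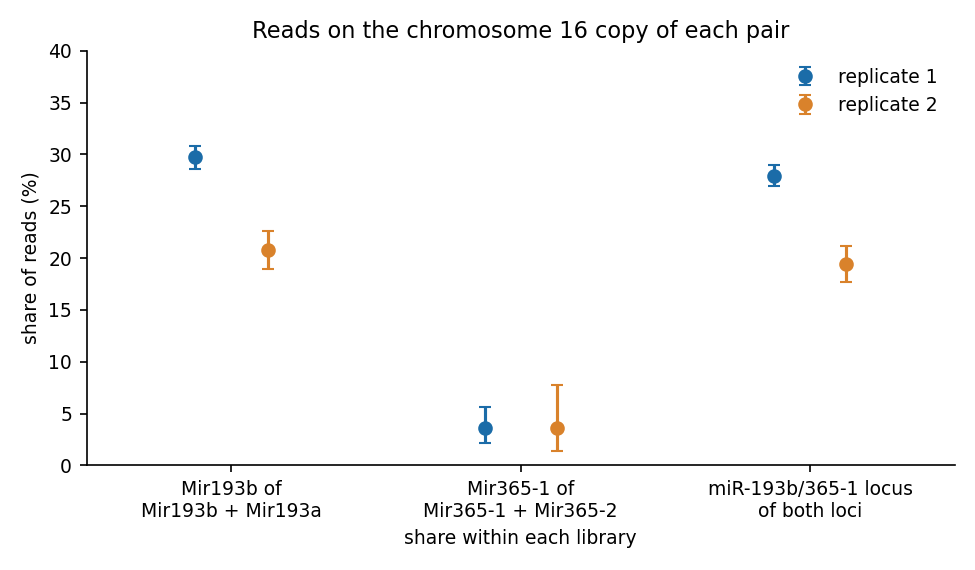
Share of assigned reads (%) on the chromosome 16 copy, for the miR-193 pair, the miR-365 pair and the sum of each locus, in replicate 1 (blue) and replicate 2 (orange). Bars are exact 95% Clopper-Pearson intervals. The Mir193b share is 29.7% and 20.8% with intervals apart, and the Mir365-1 share is 3.63% and 3.64%.

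Within each locus the miR-193 hairpin took nearly all assigned reads. Mir193b held 99.1% (98.6 to 99.5) of the reads of its locus in replicate 1 and 98.5% (96.8 to 99.5) in replicate 2. Mir193a held 91.0% (90.2 to 91.7) and 90.5% (89.0 to 91.9) of its own. Mir193b thus had 112.9 times the reads of Mir365-1 in replicate 1 and 66.2 times in replicate 2, and Mir193a had 10.1 and 9.53 times those of Mir365-2. Per base of hairpin the folds were 124 and 72.9 for Mir193b over Mir365-1 and 17.1 and 16.2 for Mir193a over Mir365-2.

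Gaps of this size between neighbouring hairpins were not rare in the tables. There were 72 pairs of successive hairpins on a strand within 10 kb, with at least 10 CPM in the higher gene. In 7 of them the lower gene was at 0, and the median fold of the others was 7.86. In 22 of the 72 the fold was at least the 95.2 of Mir193b over Mir365-1 (mean CPM), or the lower gene was at 0. The 22 include Mir193b and Mir365-1. Many of the others come from a single cluster of Mir466, Mir467 and Mir669 hairpins on chromosome 2, where a hairpin can enter several pairs. Some lower genes, such as Mirlet7a-2, share an identical arm with another hairpin, so their counts may miss reads. Mir193a and Mir365-2 lie farther apart than 10 kb. Within 50 kb there were 81 pairs, 8 of them with the lower gene at 0. The fold of 9.86 for Mir193a over Mir365-2 equalled the median of the pairs in which both genes had reads. In 45 of the 81 the fold was at least that large or the lower gene was at 0.

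The uneven division of the miR-365 copies was set beside other microRNAs with an identical arm. Among 24 pairs of hairpins that share a mature arm and summed to at least 10 CPM in both libraries, the higher copy held a median of 93.2% of the assigned reads. The share of Mir365-2 was 96.4%. In 6 of the 24 pairs, Mir365-2 and Mir365-1 included, it was at least that high, and in 15 it was above 90%. The lowest was 52.2%. A division of this kind was therefore common in the assigned reads of such copies. Reads of the shared arm fit both copies and may be missing from these counts, so how copies divide in that arm was not tested.

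The libraries were also compared gene by gene. Each of 556 genes with at least 10 counts over both entered an exact binomial test (two-sided) after trimmed-mean (TMM) scaling, which compares these 2 libraries and not conditions. Its p-values set the difference against counting error alone and take no account of the spread between cultures. The test called 231 genes (41.5%), 94 higher (16.9%) and 137 lower (24.6%) in replicate 1. Of the calls 40.7% were thus higher, against 59.5% without Mir21a in the totals and 92.1% with library totals. In addition, of the 210 genes that averaged 10 CPM or more it called 83.3%. Of the members, 1 was called higher, 1 lower and 2 were not called, so a call on a member, made where most of these 210 genes are called, does not set it apart.

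Mir193b was 1.49-fold higher in replicate 1, a TMM-scaled log2 ratio of 0.58 (counting SE 0.08, adjusted p = 1.2e-13, exact binomial test with Benjamini-Hochberg adjustment over all 556 genes). It was higher by each scaling tried, with log2 ratios of 0.64 with DESeq2 size factors, 0.75 without Mir21a in the totals and 1.47 with library totals. Its ratio ranked 18th of those 210 more abundant genes, whose median absolute log2 ratio was 0.33.

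Mir193a had a log2 ratio of -0.11 (counting SE 0.04, adjusted p = 0.022, exact binomial test), which rests on the scaling. With DESeq2 size factors it was -0.051 and did not pass (adjusted p = 0.39, exact binomial test), and with library totals it was 0.78, toward replicate 1. Mir365-2 had -0.19 (counting SE 0.13, adjusted p = 0.28, exact binomial test), against 0.70 with library totals. Mir365-1 had -0.27 (counting SE 0.66, adjusted p = 0.93, exact binomial test), against 0.63 with library totals. Without Mir21a in the total, Mir193a stood at 226 CPM in replicate 1 and 217 in replicate 2, Mir365-2 at 22.5 and 22.8, Mir365-1 at 0.846 and 0.859, and Mir193b at 95.5 and 56.8. On this scale the libraries differed most for Mir193b among the 4 genes.

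**Figure D4:**
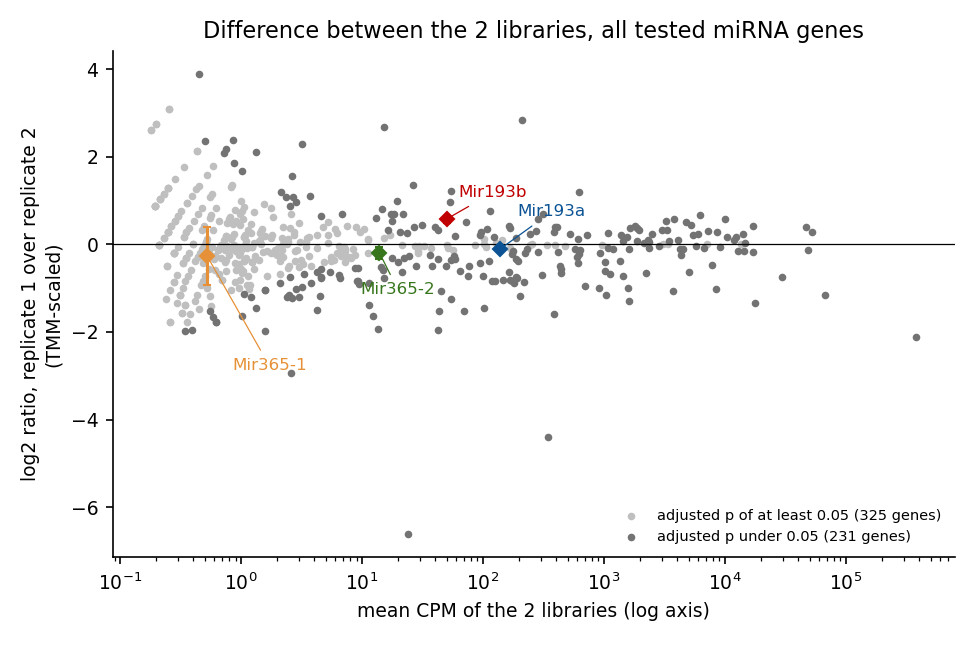
TMM-scaled log2 ratio of replicate 1 over replicate 2 (y axis) against mean CPM (x axis, log) for 556 tested miRNA genes. Dark points passed an adjusted p of 0.05 (231 genes), and diamonds with counting SE mark the members. Mir193b lies at 0.58, and Mir193a, Mir365-2 and Mir365-1 lie between -0.27 and -0.11.

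Of the 10 muscle genes listed, 5 could be tested between the libraries. Mir206, Mir133b and Mir486 were called higher in replicate 1 and none was called lower, against 16.9% and 24.6% of all tested genes. Of the 210 genes that averaged 10 CPM or more, Mir206 and Mir133b among them, 83.3% were called in either direction. Mir208b and Mir499 had log2 ratios of -0.095 and -0.052 and were not called (adjusted p = 1 for each, exact binomial test). Mir206 had 2559 CPM in replicate 1 and 1028 in replicate 2, 0.42 as log2 ratio (adjusted p = 2.3e-246, exact binomial test). Mir133b, its cluster neighbour and a microRNA reported to hold back brown fat formation in mice, had 88.0 and 20.4 CPM, 1.21 as log2 ratio (adjusted p = 1.0e-52, exact binomial test). Mir133b, Mir486, Mir208b and Mir499 were named after their values were seen. Whether these genes and Mir193b differ between the libraries for a shared reason was not tested.

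The members were then placed among the microRNAs tied to brown or beige fat. Of 33 such genes, 29 were detected, against 14.5% of all miRNA genes and 26.6% of those with a Mir symbol. These were 16 of 17 on the list tied to more brown fat traits and 13 of 16 on the list tied to fewer. The first list includes the members. Both lists were chosen with earlier results of these data known, so the share detected is not read as a result about brown fat. By mean CPM per base of hairpin the members ranked 16 (Mir193a), 21 (Mir193b), 25 (Mir365-2) and 31 (Mir365-1) of the 33. The median gene had 1.27 CPM per base on the first list and 26.3 CPM per base on the second. Mir193a thus lay above the median of its list, which includes the members, and Mir193b below it, by level and with no test.

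The 6 highest genes of the lists had from 56.6 to 550 CPM per base of hairpin, all above Mir193a at 2.08. Mirlet7i, a let-7 microRNA on the list tied to fewer brown fat traits, had 46712 ± 27975 CPM. Mir378a, which lies in an intron of the mitochondrial regulator Ppargc1b and is on the list tied to more, had 9094 ± 3637 CPM. On the list tied to fewer, Mir27a had 7851 ± 1635 CPM, Mir155, also known from immune cells, had 6684 ± 2593 CPM, Mir27b had 5062 ± 677 CPM and Mir125b-1 had 4358 ± 1390 CPM (SD, n = 2 for each). Mir125b-1 shares 3 of its 56 windows of 22 bases with Mir125b-2, so its count may miss reads that fit both. Mir27a and Mir27b share no such window with another counted hairpin. Mir133a-1 and Mir133a-2, muscle genes on the second list, had no read in either library, with the limit on shared windows given above.

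**Figure D5:**
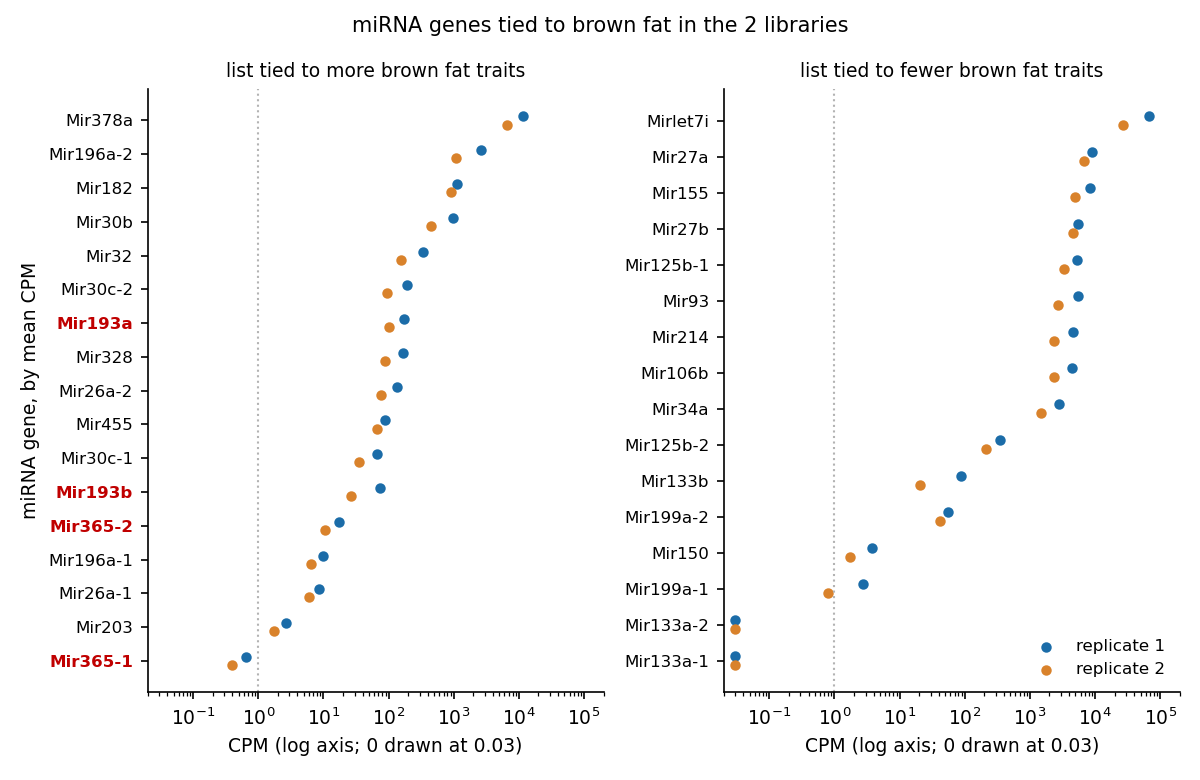
CPM (x axis, log) of 33 miRNA genes tied to brown fat, by list and ordered by mean CPM, in replicate 1 (blue) and replicate 2 (orange), with the members in red. A dotted line marks 1 CPM, and a level of 0 is drawn at 0.03. Mir365-1 is the lowest gene of its list by assigned reads, which may miss reads shared with Mir365-2. Mir193a and Mir193b lie between 26.4 and 174 CPM.

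Between the libraries the lists split both ways. Of the 17 genes tied to more brown fat traits, all were tested, 4 were called higher and 4 lower in replicate 1, with a median log2 ratio of -0.06. Of the 14 tested genes tied to fewer, 5 were called higher and 6 lower, with a median of 0.02. Over all tested genes 41.5% were called, 16.9% higher and 24.6% lower. Among the 210 genes that averaged 10 CPM or more, 83.3% were called. Most list genes were that abundant, as 13 on the first list and 12 on the second had at least 10 CPM in both libraries. The median ratio over all 556 genes was -0.09. With library totals every ratio rises by 0.90, so these directions hold for the TMM scale only.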

How the data were processed

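Small RNA of 2 C2C12 libraries was counted by the authors, who deposited whole-number read counts per miRNA gene on mm10 with GENCODE M21, per the readme files beside the tables. Which aligner and read counter made them is not given in the sources used here. Of 3 columns (either, gene and opposite strand), the gene strand was used. Rows that name no gene (49.7% of reads in replicate 1, 38.8% in replicate 2) stayed out of totals and tests. All 2202 identifiers matched GENCODE M21. Counts were scaled to CPM and, for the library comparison, with TMM (edgeR 4.0.16, R 4.3.3), with DESeq2 1.42.0 size factors as an alternative. Log2 ratios carry a prior count of 0.5. The test was tried on simulated counts. These held counting error alone, so they do not show how it behaves with spread between cultures. With a single group, edgeR's own test could not be fitted. No genome sequence was used, so windows were searched in GENCODE transcripts, a change from the planned genome search. The members and lists were chosen with earlier results of these data known, and the lists come from general knowledge. Named genes were the members, microRNAs sharing their seeds, the 3 nearest genes in level, overlapping genes and list genes averaging at least 1000 CPM. At most 6 list genes were taken from the muscle list and at most 6 from the brown fat lists, pooled. Intervals and floors take in counting error alone, as PCR reads are not independent molecules.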

Additional observations from a re-analysis of the deposited data

Results flagged for a closer look

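Values outside the gene-strand counts stood above the 3 counts that a count of 0 allows. Mir193a had 10 reads on the strand opposite to its hairpin in replicate 1 and 1 in replicate 2, or 0.208% and 0.0659% of its reads on either strand. Mir193b, Mir365-1 and Mir365-2 had none there. Leaving out reads that fit overlapping genes on both strands, replicate 1 held 429 opposite-strand reads on 73 genes, 6 of which had more than Mir193a. No control libraries were analysed here.

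Reads that map to several places came to 18382947 for replicate 1 and 5599235 for replicate 2. Reads of miR-365-3p shorter than 25 bases fit both miR-365 hairpins, and the number of them among these reads was not tested.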

How the results depend on the processing

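With 2 libraries of a single group, a precision beyond their spread cannot be had, and the miR-365 counts may miss reads that fit both copies. No paired analysis was possible because there is a single group. Ratios between libraries have no value without a replicate. As an alternative setting, hairpin length was tried for the shares only. Levels and folds per base of hairpin are given above. Of the levels, Mir365-1, Mir193a, Mir365-2 and the Mir193a/Mir365-2 locus moved to 0.852, 221.5, 22.6 and 244 CPM without Mir21a in the total, and to 0.286, 74.5, 7.58 and 82.1 CPM with all reads of the library as the total. Per base of hairpin the Mir365-1 share of miR-365 reads was 4.63% and the Mir193a share of its locus 94.3%. The log2 ratio of Mir193a was -0.051 with DESeq2 size factors, -0.070 without a filter and -0.077 with at least 50 counts, no longer called (adjusted p from 0.11 to 0.39, exact binomial test), and reversed to 0.058 without Mir21a in the total and 0.78 with library totals. Library totals also reversed Mir365-1 (0.63) and Mir365-2 (0.70, adjusted p = 8.5e-08, exact binomial test). Windows of 18 bases gave 22 shared windows over the 4 hairpins, against 12 of 22 bases. The count of called genes stayed within 1.5 times its 231 (94 higher and 137 lower in replicate 1), but its balance turned, to 330 (304 higher and 26 lower) with library totals and to 232 (138 higher and 94 lower) without Mir21a in the totals. The remaining alternatives changed no direction or call, moved a level or share by less than the spread between the libraries, or kept a count within 1.5 times.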

Other observations

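Genes nearest to the members in log2(CPM + 1) over the 2 libraries were sought among the 1173 other genes with a symbol that starts with Mir. With 2 libraries this likeness reflects little more than level. Mir193b was nearest to Mir153 (83.3 CPM in replicate 1 and 22.8 in replicate 2), then Mir7689 and Mir3061. Mir193a was nearest to Mir30c-2 (191 and 95.8 CPM), then Mir328 (167 and 87.3 CPM) and Mir700. Mir30c-2 and Mir328 are on the list tied to more brown fat traits. Mir365-2 was nearest to Mir29b-2 (16.6 and 10.6 CPM), then Mir8112 and Mir3109. Mir365-1 was nearest to Mir1969 and Mir7054, with 0.687 and 0.399 CPM each, then Mir3100.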
